A study of Homo sapiens with 6 samples.

Results

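Genes of cholesterol and fatty acid metabolism were followed in RKO, an established human line of colorectal carcinoma, with and without overexpression of the long non-coding RNA LOC101927668. The group held 38 of the 58735 genes in the table. They were chosen by name for their place in the pathway, with earlier results of these data known. Of the 38, 36 passed the filter on low expression. Of the members, 7 belonged to the mevalonate pathway, 12 to the conversion of squalene precursors into cholesterol, 5 to sterol sensing, 8 to fatty acid synthesis, 4 to sterol uptake and intracellular transport, and 2 to sterol efflux. The control cells (Vector) carried the control lentiviral vector and the overexpressing cells (LOC_OE) carried the full-length transcript. Both lines were grown in DMEM with fetal bovine serum after selection with puromycin. Each group was a stably infected line with 3 libraries described as biological replicates, and how these were separated is not given in the sources used here, so the p-values measure only the spread between these libraries. No other treatment or time point was included.

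Cells make cholesterol from acetyl-CoA through mevalonate, farnesyl diphosphate, squalene and lanosterol. The genes of this route are controlled together by the transcription factor SREBP2, while SREBP1 acts mainly on genes of fatty acid synthesis. Both factors are made as membrane proteins of the endoplasmic reticulum, where SCAP escorts them to the Golgi when sterols are scarce and INSIG proteins hold them back when sterols are plentiful. Oxysterols act in the opposite sense through the liver X receptors, which turn on genes of cholesterol efflux such as ABCA1.

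Expression was given as FPKM, the fragments on a gene scaled to exon length and library size. The length counts every annotated exon of a gene, used in these cells or not, so levels of different genes compare only roughly. LOC101927668, which the table lists as AC005062.1, had at most 1 read in each Vector library and 231, 270 and 276 reads in the LOC_OE libraries, and the groups were as labelled. The libraries held between 15008842 and 18410231 reads on genes. LOC_OE replicate 1 stood apart, with correlations to the other LOC_OE libraries of 0.962 and 0.967 over all tested genes, against 0.982 between replicates 2 and 3. Of the 7 epithelial markers of colon, KRT8, KRT18, EPCAM and CDX2 were expressed, while CDH1 had no read in any library and KRT19 and VIL1 had at most 2 reads. The leukocyte marker PTPRC had at most 1 read and the mesenchymal marker DCN had none. Another mesenchymal marker, VIM, moved with the groups, with 4.02, 3.46 and 3.99 FPKM in Vector and 0.969, 1.80 and 1.28 in LOC_OE, a log2 fold change of -1.05 (limma adjusted p = 0.00877). COL1A1 had 19 to 26 reads in Vector and 5 to 18 in LOC_OE. The part of these markers in the results was not tested. In RNA from whole cultures, fewer cells expressing a gene and less RNA per cell cannot be told apart.

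Of the 19 mevalonate and cholesterol synthesis genes, 10 fell in LOC_OE cells and 9 did not pass the test. Over all members, the falls were largest for INSIG1, a sterol sensing gene, for the synthesis genes DHCR7, HMGCS1 and MSMO1, and for STARD4, a sterol carrier. A gene was counted as changed when limma on log2(FPKM + 1) gave a Benjamini-Hochberg adjusted p under 0.05 over the 16061 genes tested. By this measure, 16 of the 36 tested members fell and 2 rose. Over all genes tested, 9.74% fell and 10.7% rose. With a fold change of at least 1.5 as well, 11 members were lower and 1 was higher, against 5.58% and 4.63% of all genes. Every LOC_OE library was below every Vector library in 20 members and above every Vector library in 4, against 20.9% and 24.4% of all genes. Those 4 include ABCA1, which passed the filter only through the LOC_OE libraries. The median log2 fold change was -0.45 over the tested members and 0.02 over all tested genes.

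The members differed in how firmly they were called. With 1 library left out at a time, between 6 and 28 members passed the threshold. The count was 7, 6 and 6 without Vector replicates 1, 2 and 3, and 28, 11 and 14 without LOC_OE replicates 1, 2 and 3. HMGCS1, MSMO1, INSIG1, STARD4, ACSS2 and ELOVL6 passed in all 6 of these fits and in the 9 other alternatives. Of these 15, CYP51A1 passed in 13, DHCR7, SC5D and SREBF2 in 12, MVD and MYLIP in 11, MVK, FDFT1 and HSD17B7 in 10, IDI1 and FASN in 9, and ACACA in 7. LOC_OE replicate 1 had the highest LOC_OE value in 25 of the 36 tested members, against 45.0% of all tested genes. Without it, 24 members fell and 4 rose, and over all genes 16.1% fell and 19.4% rose. An exact permutation test of a single gene cannot give a p below 0.10 with 3 libraries against 3.

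**Figure D1:**
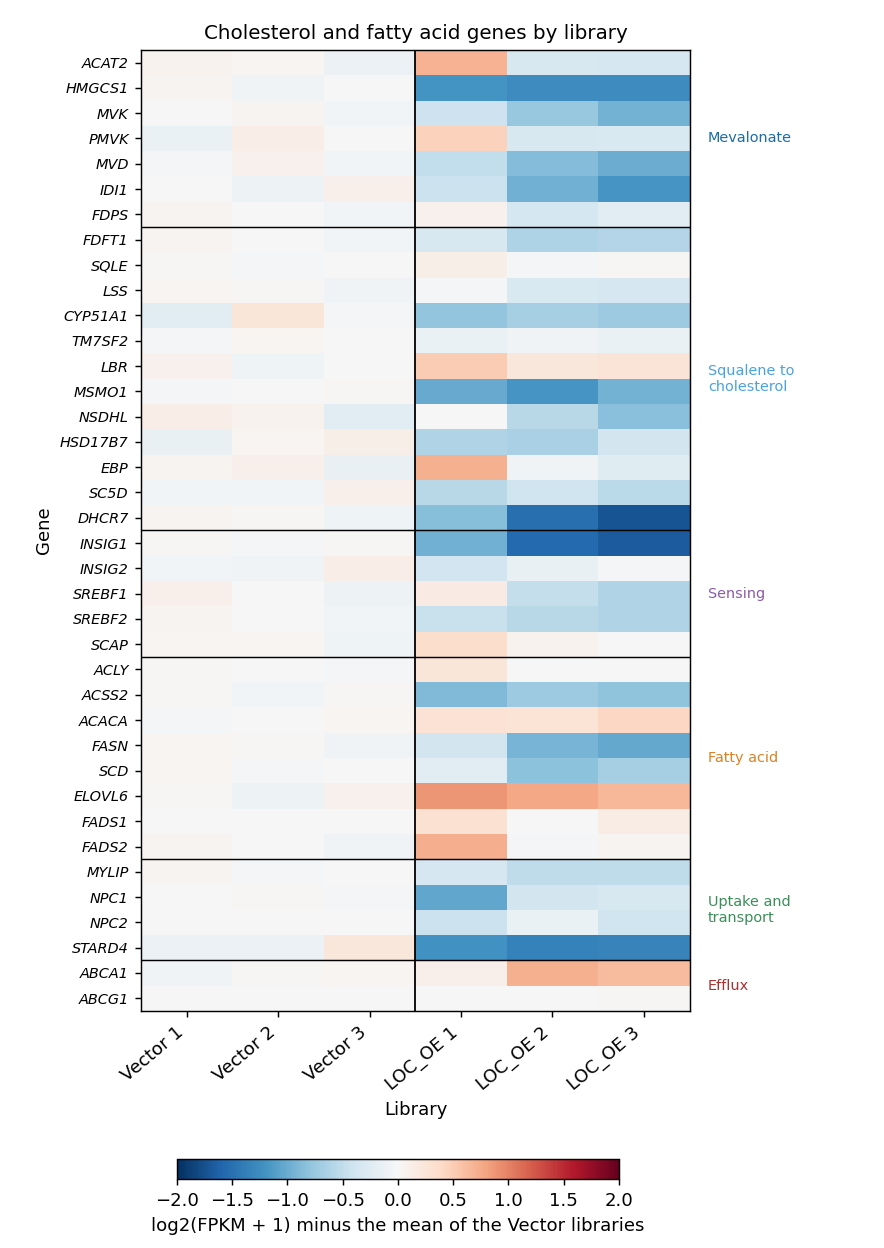
Each row is a gene, each column a library, and the colour gives log2(FPKM + 1) minus the mean of the 3 Vector libraries. In the mevalonate, cholesterol and sensing rows, HMGCS1, MSMO1, DHCR7 and INSIG1 are clearly blue in all 3 LOC_OE columns. Some other rows of these lists are near white or red in at least 1 of them. ELOVL6 is red in all 3, and ACAT2, PMVK, EBP and FADS2 are red in LOC_OE replicate 1 alone.

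The promoters of the members that fell most are shown because these genes are known to share transcription factors. SREBPs bind sterol regulatory elements and act with NF-Y, a factor that binds CCAAT. RefSeq promoters of build GRCh38.p14 were found for 33 of the 38 members, and none was in the table used for ACAT2, FASN, FDFT1, SQLE and ABCG1. The 250 bases before each start were searched on both strands. CCAAT on either strand was present in 22 of the 33 members, or 66.7%, and in 37.0% of all genes with a promoter in that table. Those are 27305 genes, expressed in these cells or not, and the share over single promoters was 32.0%. Expressed genes alone were not examined, so the members have no matched share to be set against. By outcome, CCAAT was present in 13 of the 14 members that fell and in 9 of the 19 others. This split by the same data was not tested, and FASN and FDFT1, which also fell, could not be searched. On the strand of the gene, CCAAT on the other strand reads ATTGG. TCACNCCAC, a sterol regulatory element sequence, was present in 1 of the 33 members, SREBF2, and in 1.09% of all genes. These matches are letters in a window and say nothing on binding. A window of 59 bases around a CCAAT is given 5′ to 3′ on the strand of the gene for the 5 members with the largest fall and for SREBF2, with both motifs in capitals.
INSIG1 (chr7:155297681-155297739, plus strand): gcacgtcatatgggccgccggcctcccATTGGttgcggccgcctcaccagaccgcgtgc
DHCR7 (chr11:71448456-71448514, minus strand): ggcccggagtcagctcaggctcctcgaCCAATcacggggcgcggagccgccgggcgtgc
STARD4 (chr5:111512634-111512692, minus strand): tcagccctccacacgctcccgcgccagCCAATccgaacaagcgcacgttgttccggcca
HMGCS1 (chr5:43313536-43313594, minus strand): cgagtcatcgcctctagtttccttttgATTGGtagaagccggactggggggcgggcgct
MSMO1 (chr4:165327503-165327561, plus strand): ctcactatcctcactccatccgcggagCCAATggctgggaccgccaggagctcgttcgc
SREBF2 (chr22:41832972-41833030, plus strand): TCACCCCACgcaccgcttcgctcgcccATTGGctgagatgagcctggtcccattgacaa
In SREBF2 the sterol regulatory element sequence opens the window and the CCAAT on the other strand follows it. The CCAAT shown begins 170 bases before the RefSeq start in INSIG1, 94 in DHCR7, 130 in STARD4, 155 in HMGCS1, 139 in MSMO1 and 106 in SREBF2. None of these windows overlaps an exon of its gene in GENCODE version 29.

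Of the 7 mevalonate pathway genes, 4 fell and none rose, and their median log2 fold change was -0.70. HMGCS1 (chromosome 5, 43289395 to 43313512, minus strand) encodes an HMG-CoA synthase of this pathway. It had 19.1, 17.5 and 18.4 FPKM in Vector and 7.44, 7.07 and 7.06 in LOC_OE. The 3 LOC_OE values lay close together and far below the Vector values. The LOC_OE mean was 39.3% of the Vector mean, with a log2 fold change of -1.24 ± 0.07 (SE, limma adjusted p = 0.00237).

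MVK, MVD and IDI1, which act at later steps, gave smaller falls with a wider spread. MVK, the mevalonate kinase, had 4.87, 5.08 and 4.64 FPKM in Vector and 3.41, 2.47 and 2.06 in LOC_OE, a log2 fold change of -0.70 ± 0.14 (SE, limma adjusted p = 0.0221). MVD, which decarboxylates mevalonate diphosphate, had 14.9, 16.3 and 14.7 FPKM in Vector and 10.6, 7.93 and 7.14 in LOC_OE, a log2 fold change of -0.78 ± 0.14 (SE, limma adjusted p = 0.016). IDI1, the isomerase that forms dimethylallyl diphosphate, had 17.6, 16.1 and 18.8 FPKM in Vector and 12.7, 8.44 and 7.16 in LOC_OE, a log2 fold change of -0.86 ± 0.19 (SE, limma adjusted p = 0.0275). In all 3 genes the groups did not overlap and LOC_OE replicate 1 was the highest of its group.

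The other 3 genes of the pathway did not pass the test. PMVK, the phosphomevalonate kinase between MVK and MVD, had 11.99, 14.6 and 13.3 FPKM in Vector and 18.6, 10.5 and 10.5 in LOC_OE. ACAT2, the acetoacetyl-CoA thiolase of the first step, had 11.8, 11.5 and 10.2 FPKM in Vector and 18.6, 8.76 and 8.61 in LOC_OE. In both, LOC_OE replicate 1 lay above every Vector library and the other LOC_OE libraries lay below every one, so the group difference depends on that library. For ACAT2 the log2 fold change was 0.01 with all libraries, with a 95% interval from -0.65 to 0.68, and -0.32 without LOC_OE replicate 1. FDPS, which makes farnesyl diphosphate, had 20.1, 19.1 and 18.4 FPKM in Vector and 20.4, 14.9 and 16.5 in LOC_OE, with an interval of the log2 fold change from -0.45 to 0.14.

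Of the 12 genes from squalene synthesis to cholesterol, 6 fell, none rose and 6 did not pass the test. Their median log2 fold change was -0.48. FDFT1, the squalene synthase, had 38.5, 37.6 and 35.6 FPKM in Vector and 29.6, 23.9 and 24.3 in LOC_OE, a log2 fold change of -0.51 ± 0.10 (SE, limma adjusted p = 0.0222). It was the most abundant gene of the sterol arm in Vector cells and fell to 69.8% of the Vector mean.

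SQLE, the squalene epoxidase of the following step and a rate-limiting enzyme of the route, did not pass the test. It had 33.5, 31.9 and 33.0 FPKM in Vector and 35.6, 32.3 and 33.3 in LOC_OE. The groups overlapped, and the log2 fold change was 0.04 with a 95% interval from -0.15 to 0.22. SQLE passed the threshold in 0 of the 15 alternatives and had 2105 to 2708 reads per library. Its value depended on the scaling. After scaling every library to an equal FPKM sum it was -0.22 (limma adjusted p = 0.0633), where the median of all tested genes was -0.18. After quantile normalization it was -0.21 (limma adjusted p = 0.0964). In the main fit, the interval of SQLE lies above the whole interval of HMGCS1, which ran from -1.42 to -1.06. LSS, which closes the ring to lanosterol, had 13.1, 12.9 and 12.1 FPKM in Vector and 12.4, 10.1 and 9.87 in LOC_OE, with an interval from -0.47 to 0.03.

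From squalene synthesis on, the largest falls were in later steps. DHCR7 (chromosome 11, 71428193 to 71452868, minus strand), the 7-dehydrocholesterol reductase that makes cholesterol, had 28.9, 28.2 and 25.9 FPKM in Vector and 14.8, 9.02 and 7.69 in LOC_OE. The groups were far apart, although LOC_OE replicate 1 lay between the other LOC_OE libraries and Vector. The Vector mean was 2.63 times the LOC_OE mean, with a log2 fold change of -1.36 ± 0.22 (SE, limma adjusted p = 0.0119).

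MSMO1 (chromosome 4, 165327623 to 165343160, plus strand), the sterol methyl oxidase, had 31.8, 32.4 and 32.9 FPKM in Vector and 15.7, 13.7 and 16.3 in LOC_OE. Here LOC_OE replicate 1 lay inside its group. The log2 fold change was -1.04 ± 0.09 (SE, limma adjusted p = 0.00344), and the mean fell to 47.0% of Vector.

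CYP51A1, the lanosterol demethylase, had 3.35, 5.02 and 3.97 FPKM in Vector and 1.92, 2.21 and 2.07 in LOC_OE, a log2 fold change of -0.73 ± 0.13 (SE, limma adjusted p = 0.0167). SC5D, a sterol desaturase, had 7.39, 7.39 and 8.34 FPKM in Vector and 4.90, 5.59 and 4.99 in LOC_OE, a log2 fold change of -0.50 ± 0.09 (SE, limma adjusted p = 0.0153). HSD17B7, a sterol keto reductase, had 3.38, 3.99 and 4.24 FPKM in Vector and 2.21, 2.09 and 2.78 in LOC_OE, a log2 fold change of -0.54 ± 0.12 (SE, limma adjusted p = 0.0264). In these genes, as in MSMO1, LOC_OE replicate 1 was not the highest of its group. CYP51A1 and HSD17B7 have annotated pseudogenes whose reads could be exchanged with theirs, with 85 reads on CYP51A1 pseudogenes against 1170 on the gene over all libraries, and 156 against 1558 for HSD17B7.

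The remaining 4 genes after lanosterol did not pass the test, and 2 of them reduce the same double bond. TM7SF2 had 12.9, 13.4 and 13.0 FPKM in Vector and 11.8, 12.4 and 11.9 in LOC_OE, so its groups did not overlap although its log2 fold change was only -0.12. LBR, a sterol reductase that also anchors chromatin at the inner nuclear membrane, had 20.8, 18.4 and 19.5 FPKM in Vector and 28.1, 23.1 and 23.4 in LOC_OE (log2 fold change 0.33, limma adjusted p = 0.0698). LBR was the only gene of the sterol arm with every LOC_OE library above every Vector library, where 24.4% of all genes were so. Its log2 fold change was only 0.08 after scaling to an equal FPKM sum (limma adjusted p = 0.44). After quantile normalization it was 0.15 (limma adjusted p = 0.142). NSDHL, a sterol decarboxylase, had 18.6, 17.8 and 14.5 FPKM in Vector and 16.9, 11.2 and 9.04 in LOC_OE. EBP, a sterol isomerase, had 19.6, 20.1 and 16.8 FPKM in Vector and 31.2, 17.8 and 15.7 in LOC_OE. Both groups of NSDHL and of EBP overlapped, and in both the highest LOC_OE value was that of replicate 1.

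**Figure D2:**
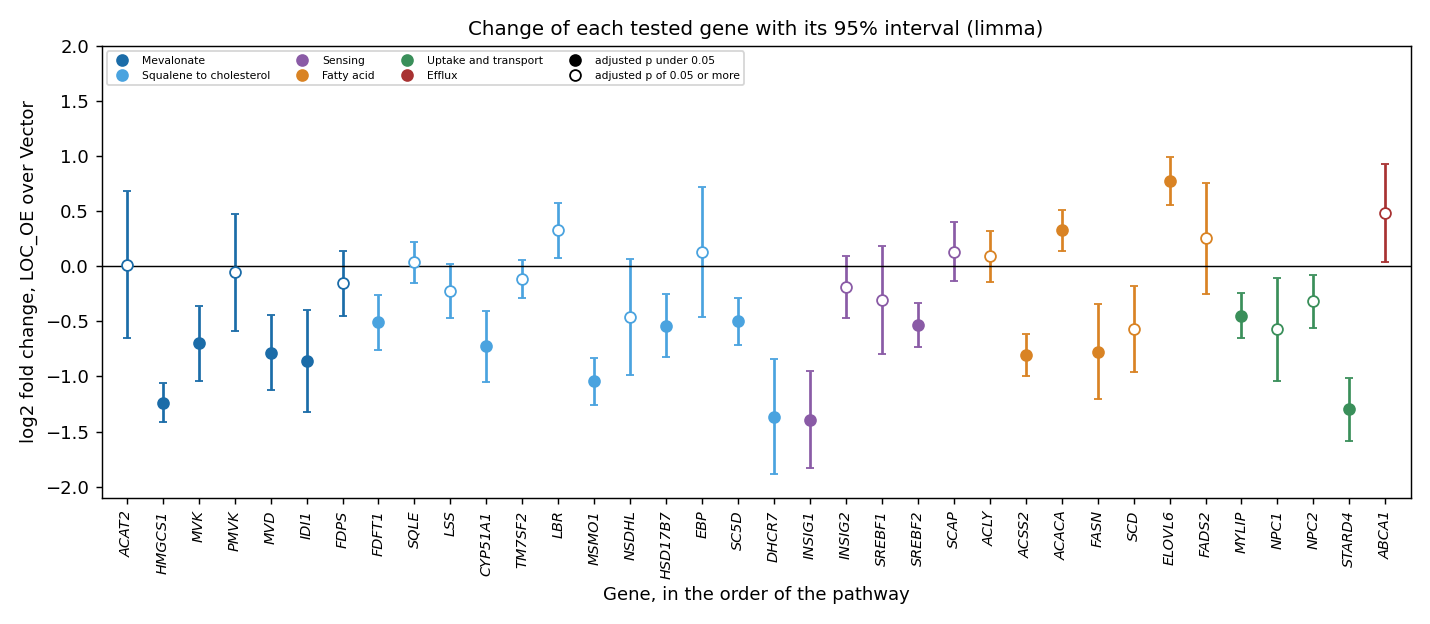
Points give the log2 fold change of LOC_OE over Vector on the log2(FPKM + 1) scale for the 36 tested genes in pathway order, with 95% intervals from limma. Filled points have an adjusted p under 0.05: 16 lie below 0, and ACACA and ELOVL6 lie above it, while SQLE sits at 0.04.

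Among the 5 sensing genes, the inhibitor INSIG1 and the gene of the factor SREBP2 fell. INSIG1 (chromosome 7, 155297776 to 155310235, plus strand), which retains SCAP in the endoplasmic reticulum and is itself a classical SREBP target, had 33.0, 31.5 and 33.0 FPKM in Vector and 16.1, 10.5 and 9.58 in LOC_OE. The lowest Vector value was well above the highest LOC_OE value. On the log2(FPKM + 1) scale this was the largest fall of the tested members, with a log2 fold change of -1.39 ± 0.18 (SE, limma adjusted p = 0.00788) and a LOC_OE mean of 37.1% of Vector.

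Its relative INSIG2, which is not known as a strong SREBP target, had 5.57, 5.51 and 6.46 FPKM in Vector and 4.22, 5.19 and 5.63 in LOC_OE. Those groups overlapped, and the interval of the log2 fold change ran from -0.47 to 0.09. INSIG1 thus went from 32.5 to 12.1 FPKM on average, while INSIG2 went from 5.85 to 5.02.

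SREBF2, which encodes SREBP2, had 32.4, 31.1 and 29.7 FPKM in Vector and 22.7, 20.8 and 20.0 in LOC_OE. The LOC_OE libraries were close to each other and the log2 fold change was -0.53 ± 0.08 (SE, limma adjusted p = 0.0112). SREBF1, which encodes SREBP1, had 21.3, 20.0 and 18.4 FPKM in Vector and 22.5, 13.9 and 12.8 in LOC_OE. LOC_OE replicate 1 lay above every Vector library and the other LOC_OE libraries lay below every one. The log2 fold change of SREBF1 was -0.30 (limma adjusted p = 0.328) and it was -0.54 without LOC_OE replicate 1. SREBF1 passed the threshold in 3 of the 15 alternatives, with adjusted p from 0.0023 to 0.616. SCAP, the escort, had 17.1, 17.0 and 15.6 FPKM in Vector and 21.3, 17.4 and 16.4 in LOC_OE, with an interval from -0.14 to 0.40.

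All 4 genes of sterol uptake and transport had LOC_OE values below every Vector value, where 20.9% of all genes did, and 2 of them passed the test. The list mixes roles, since MYLIP acts against uptake and the others move cholesterol inside cells. STARD4 (chromosome 5, 111496033 to 111512590, minus strand), a soluble carrier that moves cholesterol between membranes, had 12.4, 12.5 and 16.1 FPKM in Vector and 5.27, 4.71 and 4.78 in LOC_OE. The Vector libraries were spread more widely than the LOC_OE libraries, yet the groups were far apart. The log2 fold change was -1.30 ± 0.12 (SE, limma adjusted p = 0.00383) and the LOC_OE mean was 36.0% of Vector.

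MYLIP, a ubiquitin ligase that marks lipoprotein receptors for degradation and is induced by liver X receptors, had 7.19, 6.66 and 6.82 FPKM in Vector and 5.25, 4.56 and 4.56 in LOC_OE, a log2 fold change of -0.45 ± 0.08 (SE, limma adjusted p = 0.0181). NPC1, which exports cholesterol from lysosomes, had 12.6, 12.6 and 12.1 FPKM in Vector and 5.56, 9.48 and 9.78 in LOC_OE (log2 fold change -0.57, limma adjusted p = 0.0849). NPC1 was 1 of 8 tested members in which LOC_OE replicate 1 was the lowest of its group. NPC2, its soluble partner in the lysosome, had 19.8, 19.5 and 19.8 FPKM in Vector and 14.4, 17.9 and 14.6 in LOC_OE (log2 fold change -0.32, limma adjusted p = 0.0696).

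The efflux gene ABCA1, a liver X receptor target that loads cholesterol onto lipoproteins, went the other way without passing the test. It had 0.333, 0.418 and 0.440 FPKM in Vector, or 71 to 93 reads, and 0.501, 1.29 and 1.17 in LOC_OE, or 91, 235 and 195 reads. All LOC_OE values were above the Vector values, and replicate 1 was far closer to Vector than the other LOC_OE libraries. ABCA1 passed the filter on low values only through the LOC_OE libraries. Its log2 fold change of 0.48 is therefore given as a description. It understates a change at such low FPKM, since 1 is added before the logarithm, and the ratio of the mean FPKM was 2.49. ABCG1, another efflux transporter, had between 0 and 2 reads in each library, at or below the limit of 3 reads used here, and no change could be measured.

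**Figure D3:**
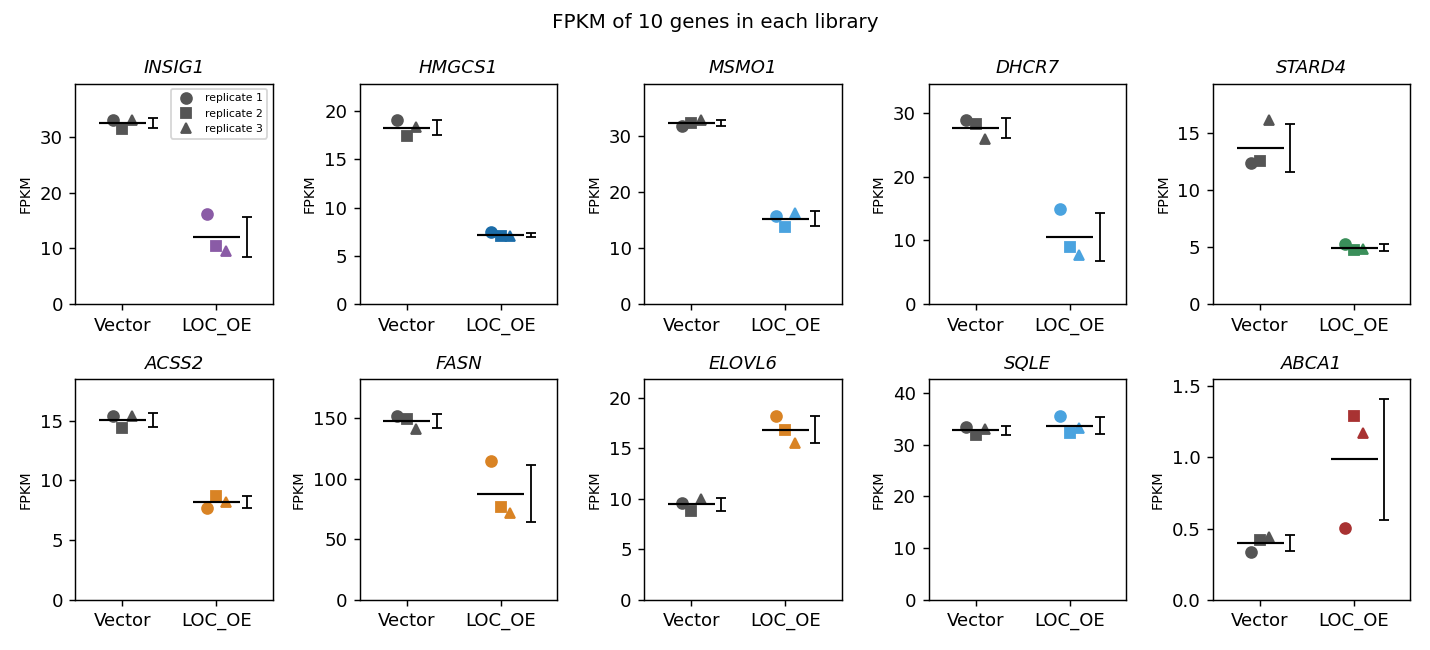
FPKM in each library for 10 genes, with a symbol for each replicate number, horizontal lines at the group means and bars of 1 SD (n = 3). INSIG1, HMGCS1, MSMO1, DHCR7, STARD4, ACSS2 and FASN are lower in every LOC_OE library, ELOVL6 and ABCA1 are higher in every one, and SQLE overlaps.

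The fatty acid genes did not move in a common direction. Of 8 genes, 7 were tested, 2 fell, 2 rose and 3 did not pass the test, and their median log2 fold change was 0.09. This median was -0.17 after scaling every library to an equal FPKM sum and -0.19 after quantile normalization, so no direction is given for the list.

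The genes that fell were ACSS2 and FASN. ACSS2 (chromosome 20, 34872146 to 34927962, plus strand), which makes acetyl-CoA from acetate, had 15.4, 14.4 and 15.4 FPKM in Vector and 7.69, 8.68 and 8.22 in LOC_OE. The replicates of each group were close together, and the log2 fold change was -0.80 ± 0.08 (SE, limma adjusted p = 0.00459). FASN, the fatty acid synthase and the most abundant member in Vector, had 152, 150 and 141 FPKM in Vector and 115, 76.6 and 71.8 in LOC_OE, a log2 fold change of -0.77 ± 0.18 (SE, limma adjusted p = 0.0309). LOC_OE replicate 1 lay between the other LOC_OE libraries and Vector, and the mean fell to 59.5% of Vector.

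In SCD, which desaturates stearoyl-CoA, LOC_OE replicate 1 was also the highest of its group. It had 111, 105 and 107 FPKM in Vector and 93.2, 60.5 and 67.3 in LOC_OE, and the groups did not overlap. Its log2 fold change was -0.57 ± 0.16 (SE, limma adjusted p = 0.0538), just outside the threshold, and -0.75 without LOC_OE replicate 1. SCD passed in 5 of the 15 alternatives, with adjusted p from 0.000231 to 0.152.

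ELOVL6 (chromosome 4, 110045846 to 110199199, minus strand), which elongates palmitate and is usually listed with SREBP1 targets, moved against FASN. It had 9.55, 8.76 and 10.0 FPKM in Vector and 18.2, 16.8 and 15.6 in LOC_OE. Every LOC_OE value was above the highest Vector value, and the log2 fold change was 0.77 ± 0.09 (SE, limma adjusted p = 0.00654). It stayed higher, at 0.53, after scaling to an equal FPKM sum. ACACA, the acetyl-CoA carboxylase that supplies malonyl-CoA, had 7.85, 8.16 and 8.43 FPKM in Vector and 10.2, 10.1 and 11.2 in LOC_OE, a log2 fold change of 0.33 ± 0.08 (SE, limma adjusted p = 0.0327). The rise of ACACA was only 0.09 under that scaling, with an adjusted p of 0.569, and it passed in 7 of the 15 alternatives, with adjusted p from 0.00294 to 0.569.

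ACLY, which cleaves citrate to cytosolic acetyl-CoA, had 76.2, 75.0 and 73.0 FPKM in Vector and 88.8, 75.3 and 75.3 in LOC_OE, with an interval of the log2 fold change from -0.14 to 0.32. The acetate route through ACSS2 and the citrate route through ACLY therefore gave intervals that did not overlap, since that of ACSS2 ran from -0.995 to -0.61. The desaturases of polyunsaturated fatty acids were scarce. FADS2 had 1.36, 1.28 and 1.15 FPKM in Vector and 2.76, 1.23 and 1.35 in LOC_OE, where the high value was that of replicate 1. FADS2 shares 49 exon bases with FEN1, which had 67.6 FPKM in that library and 34.4 to 45.1 in the others, and the part of those bases in the value was not tested. FADS1 had 0.130 to 0.147 FPKM in Vector and 0.403, 0.128 and 0.259 in LOC_OE, with 21 to 66 reads per library, and it did not pass the filter.

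Set side by side, the arms gave different medians in the same libraries. Over the 19 mevalonate and cholesterol genes, 10 fell and 0 rose, and LOC_OE replicates 1, 2 and 3 had medians of -0.32, -0.55 and -0.54 for log2(FPKM + 1) relative to the Vector mean. Over the 7 fatty acid genes it was 0.25, -0.02 and 0.01. The medians over all tested genes were 0.03, 0.01 and 0.01. The mevalonate genes alone gave -0.41, -0.75 and -0.94, and the genes of uptake and transport gave -0.73, -0.43 and -0.45. LOC_OE replicate 1 thus had the smallest fall in the mevalonate list and the largest in the uptake list. The difference between the arms was not tested.

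**Figure D4:**
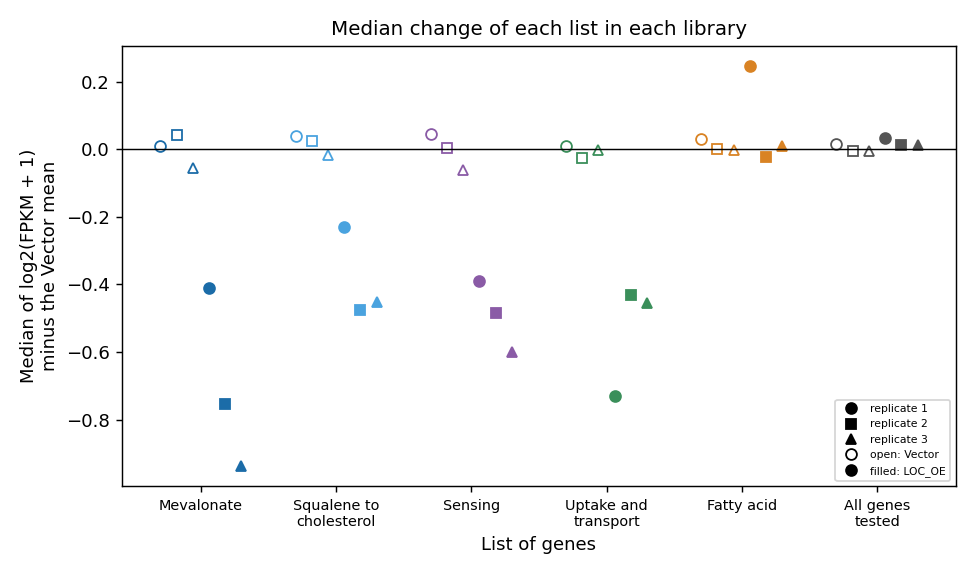
Each symbol is the median over the tested genes of a list, in 1 library, of log2(FPKM + 1) minus the Vector mean of each gene. The Vector libraries lie near 0, the LOC_OE libraries lie below them for mevalonate, cholesterol, sensing and uptake genes, and they surround the Vector libraries for fatty acid genes.

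The order of the members by FPKM, a rough comparison between genes, shows what the falls amounted to. In Vector cells FASN led with 147 FPKM on average, followed by SCD with 108 and ACLY with 74.7. FDFT1 came next with 37.2, and its range did not overlap that of its neighbours. SQLE, INSIG1 and MSMO1 followed between 32.3 and 32.8 FPKM, with overlapping ranges, so their order is not resolved. Of the 37 pairs of neighbours in this order, 21 had overlapping ranges over the Vector libraries. In LOC_OE cells INSIG1 went from place 6 to 17, DHCR7 from 9 to 21 and HMGCS1 from 15 to 27, while ELOVL6 went from 27 to 11. ACLY went from place 3 to 2 by the mean, but the LOC_OE ranges of FASN, ACLY and SCD overlapped and their order there is not resolved.

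Chromosomal position and gene overlap were also examined. For the 18 members that changed, the other genes tested within 5 Mb on each side, 20 to 152 per member, had median log2 fold changes between -0.19 and 0.33. Each of the 18 changes was larger in size than the median of its neighbours, but the 18 were picked because they passed the test. An effect of position was not tested. Exon bases shared with another gene were present in 17 members, at 10% or more of the exon bases in 5 (ACAT2, HMGCS1, IDI1, FDPS and CYP51A1). The strand used in counting is not given in the sources used here, so reads of such pairs cannot be told apart. ACAT2 shares 397 bases with TCP1 on the other strand, and TCP1 had 109 FPKM in LOC_OE replicate 1 and 48.8 to 57.0 in the other libraries. ACAT2 was also highest in that library, and the part of the shared bases in its value was not tested. For CYP51A1 the gene that shares 79.4% of its exon bases on the same strand, AC000120.2, was at 0 in every library. How reads on those bases were assigned is not given, and their part in the level of CYP51A1 was not tested.

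Beyond the 38 members, 74 further genes of isoprenoid, sterol and fatty acid metabolism were examined, of which 62 were tested. Of these, 8 fell and 9 rose, where 9.74% and 10.7% of all genes did, with a median log2 fold change of 0.10. In the list of SREBP processing genes (proteases, ubiquitin ligases and their partners), 0 of 11 fell and 1 rose. Among genes that use isoprenoids (prenyltransferases and ubiquinone and dolichol enzymes), 0 of 12 fell and 3 rose. Of the 13 tested genes of sterol transport and oxysterol signalling 4 fell and 2 rose, of the 6 tested accessory genes of sterol synthesis 0 fell and 1 rose, and of the 20 further fatty acid genes tested 4 fell and 2 rose.

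With a fold change of at least 1.5 as well, 3 of the 62 genes were lower and 2 were higher, where all genes gave 5.58% and 4.63%. MLXIPL, which encodes the carbohydrate response factor ChREBP, an activator of lipogenic genes, had 1.72, 1.53 and 1.33 FPKM in Vector and 0.104, 0.220 and 0.155 in LOC_OE (log2 fold change -1.12 ± 0.12 SE). ACSL5, which activates fatty acids to their CoA esters, had 3.89, 4.22 and 3.60 FPKM in Vector and 0.442, 1.46 and 1.21 in LOC_OE (log2 fold change -1.30 ± 0.20 SE, limma adjusted p = 0.0115). NR1H2, a liver X receptor, had 13.5, 12.7 and 11.9 FPKM in Vector and 10.1, 7.00 and 6.37 in LOC_OE (log2 fold change -0.66 ± 0.16 SE, limma adjusted p = 0.0355). None of these 3 had overlapping groups. MLXIPL, which is among the 3 counted as lower, passed the filter on low values only through the Vector libraries. Its change is given as a description. ACSL5 passed in 12 of 15 and NR1H2 in 9 of 15.

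The 2 genes that rose were RABGGTB and CYB5B. RABGGTB, a subunit of the enzyme that attaches geranylgeranyl groups to Rab proteins, had 12.6, 13.2 and 14.2 FPKM in Vector and 26.1, 22.5 and 21.5 in LOC_OE (log2 fold change 0.76 ± 0.10 SE, limma adjusted p = 0.00788). CYB5B, a cytochrome of the outer mitochondrial membrane, had 18.4, 17.6 and 17.8 FPKM in Vector and 35.7, 24.0 and 24.7 in LOC_OE (log2 fold change 0.60 ± 0.16 SE, limma adjusted p = 0.0412). RABGGTB passed in 14 of 15 alternatives and CYB5B in 7, and in both every LOC_OE library was above every Vector library.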

How the data were processed

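RNA of 6 RKO libraries (3 Vector, 3 LOC_OE) was prepared with a NEBNext Ultra kit and sequenced as paired ends on an Illumina NovaSeq instrument. Per the labels' processing notes, the tools included HISAT2 2.0.4 and StringTie 1.3.0 and the build was hg38. The counting tool and its strand setting are not given in the sources used here. The authors deposited FPKM values for 58735 genes, all found in GENCODE version 29. FPKM times exon length gave whole reads for 100% of values (tolerance 0.1), and the library sizes behind the deposited FPKM were median-of-ratios factors times the mean depth, so libraries were already scaled. There were 0 unused columns of values.

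Differences were fitted with limma 3.58.1 (R 4.3.3) on log2(FPKM + 1), with a variance trend, over the 16061 genes that reached 0.5 FPKM in 3 or more libraries. P-values were adjusted over all of them by the Benjamini-Hochberg method, and the steps were tested on simulated data. On this scale the fold change of a gene at low FPKM is understated. Read counts cover counting error only. Every member is named, and genes of the wider lists are named where they passed the adjusted p of 0.05 and changed 1.5-fold or more. The members, lists and tests were chosen with earlier results of these data known. Alternatives included a pseudocount of 0.1, no filter, a minimum mean of 1 FPKM, scaling to an equal FPKM sum, quantile normalization, no trend, array weights, a replicate block, voom on the recovered reads, unadjusted p-values and leaving out each library. Motifs were searched with Python 3.11.15, and figures were drawn with matplotlib 3.10.9.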

Additional observations from a re-analysis of the deposited data

How the results depend on the processing

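The count of members past the adjusted p threshold (18) was 14 without a filter, 22 after quantile normalization, 19 with voom, 23 at unadjusted p, and 28 with array weights. Leaving out each library gave 6 to 28 members, and 371 to 1670 of all genes past both thresholds in place of 1639, lowest without Vector replicate 2. The counts over all genes were 672, 371 and 474 without Vector replicates 1, 2 and 3. Scaling to an equal FPKM sum moved the median of all genes to -0.18, the split of all called genes from 896 lower and 743 higher to 1795 and 259, the members past the threshold to 23 lower and 1 higher, and the median of the 19 mevalonate and cholesterol genes from -0.50 to -0.72. The fatty acid median went from 0.09 to -0.17 under that scaling and to -0.19 after quantile normalization. ACAT2 went from 0.01 to -0.30 with array weights, and between -0.32 and 0.19 with a library left out. The cause of these changes was not tested. The replicate number did not pair the libraries (correlations of deviations 0.11, -0.03 and 0.12), and a fit with a replicate block gave 17 members and 1435 of all genes. Summed over the 18 calls, leaving out each library ended a call 47 times, and the 9 other alternatives did so 7 times. Members not called with all libraries passed the threshold in the same direction 10 and 22 times, besides ACAT2. ABCA1 was not tested under a minimum mean of 1 FPKM or an equal FPKM sum. Genes with few reads, such as FADS1 and ABCG1, are limited by depth.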
